A study of Mus musculus with 8 samples.

Results

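Genes of retinoid metabolism and signalling were followed in dermal fibroblasts of young and old mice. The set held 9 genes: the retinaldehyde dehydrogenases Aldh1a1, Aldh1a2 and Aldh1a3, the retinaldehyde reductase Dhrs3, the retinoic acid hydroxylase Cyp26b1, the binding proteins Crabp1 and Crabp2, and the retinoic acid receptors Rarb and Rarg. Members were the probe sets annotated to a single one of these symbols, and where a gene had several the brightest on average stood for it. In this way 8 of the 9 genes were found, among 17097 genes in all, and Rarb was not analysed here because no probe set given for the arrays was annotated to it. The 8 genes had 11 probe sets between them, 3 for Aldh1a3, 2 for Rarg and 1 for each of the others. The young group was 4 mice of 2 months and the old group 4 mice of 18 months, each animal on its own Affymetrix perfect-match array, with no treatment named for either group. Fibroblasts of both groups were sorted from collagenase-digested skin without its subdermis, as cells carrying Pdgfra and CD34 and lacking CD45, CD117, CD24, CD31 and EpCam. By the submitters' account, each collection day yielded a young mouse together with an old one, so the design was paired by day. No label shows which animals shared a day, and the main comparison was made unpaired. Strain and sex of the mice are not given in the sources used here.

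Vitamin A reaches cells as retinol. Retinol is oxidised reversibly to retinaldehyde, and the Aldh1a enzymes oxidise retinaldehyde irreversibly to retinoic acid, while Dhrs3 returns retinaldehyde to retinol. Retinoic acid is carried in the cytoplasm by Crabp1 and Crabp2, binds receptors that sit on DNA as dimers of an Rar and an Rxr protein, and is cleared by hydroxylases of the Cyp26 family. In skin the pathway is known for its effects on epidermal differentiation, hair follicles and dermal matrix, and retinoids are used on ageing skin.

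Values below are normalized log2 levels. A difference is old minus young, so that a difference of 1 is a doubling, and a gene was called when its limma adjusted p (Benjamini-Hochberg over all 17097 genes) was below 0.05. Of the 8 measured genes Aldh1a3 and Cyp26b1 rose, Rarg fell, and 5 did not pass. Over all genes 9.87% were called higher and 7.66% lower, or 17.5% in either direction, so 3 of 8 is to be read against a background in which calls were common. The share of calls that were higher was 56.3%, and 45.2% after a further quantile normalization. The groups did not overlap for Aldh1a3 and Cyp26b1 (old above young, as in 11.7% of all genes) and for Rarg (old below young, as in 9.66%), and such separation in either direction was found in 21.3% of all genes. The median difference was 0.18 over the 8 genes and 0.01 over all genes.

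**Figure D1:**
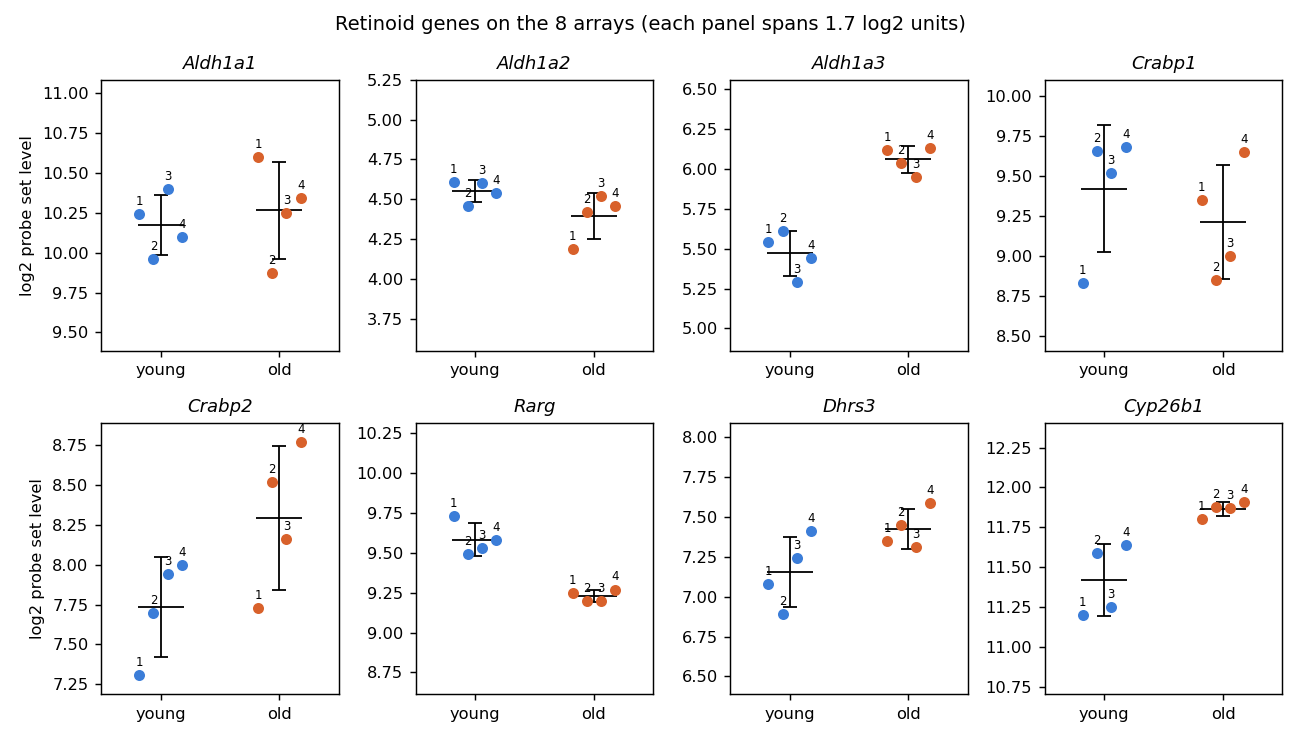
Normalized log2 level (vertical axis) of the 8 measured retinoid genes on each array, young in blue and old in orange, with the replicate number at each point and a bar for the mean ± SD of 4 animals. Every panel spans the same number of log2 units. Aldh1a3 and Cyp26b1 lie higher in all old animals than in any young animal and Rarg lower, while the groups overlap in the other 5 panels.

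Promoter sequences are shown for the receptor Rarb, whose promoter carries the textbook retinoic acid response element, and for Cyp26b1 and Rarg, which were called in opposite directions. They are the 250 bases before the annotated start, from RefSeq on GRCm38.p6, 5′ to 3′ on the strand of the gene. Capitals mark, on either strand, the receptor hexamer AGGTCA, its variant AGTTCA found in many response elements, the further variants GGGTCA or else GGTTCA, and the GC box GGGCGG. Receptor dimers bind where 2 hexamers stand in a row. The windows are chr14:16575477-16575726 (minus strand) for Rarb, chr6:84593811-84594060 (minus strand) for Cyp26b1 and chr15:102257523-102257772 (minus strand) for the upstream of the 2 Rarg starts.
Rarb: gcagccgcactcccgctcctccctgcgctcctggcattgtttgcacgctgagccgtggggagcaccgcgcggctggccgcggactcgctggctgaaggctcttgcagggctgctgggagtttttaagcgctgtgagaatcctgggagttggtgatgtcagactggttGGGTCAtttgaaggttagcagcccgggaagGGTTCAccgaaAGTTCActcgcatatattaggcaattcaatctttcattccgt
Cyp26b1: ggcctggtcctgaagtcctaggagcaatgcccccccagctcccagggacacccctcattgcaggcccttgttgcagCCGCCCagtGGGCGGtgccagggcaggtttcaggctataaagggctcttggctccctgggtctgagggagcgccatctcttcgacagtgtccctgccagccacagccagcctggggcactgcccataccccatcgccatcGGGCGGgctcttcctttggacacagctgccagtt
Rarg: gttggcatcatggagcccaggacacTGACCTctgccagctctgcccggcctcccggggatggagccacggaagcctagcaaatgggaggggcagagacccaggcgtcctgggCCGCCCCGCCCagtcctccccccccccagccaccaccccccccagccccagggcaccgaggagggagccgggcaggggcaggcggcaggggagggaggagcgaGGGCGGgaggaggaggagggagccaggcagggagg

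In Rarb a direct repeat of these hexamers with 5 bases between, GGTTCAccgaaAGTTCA, lay 53 to 37 bases before the start. The table held 11 starts for 7 of the 9 genes (all but Aldh1a3 and Crabp2), and this was the only start of the 11 with such a repeat at a spacing of 5, 2 or 1. Among all 32851 starts in the table, 0.0883% had a repeat at a spacing of 5, 0.174% at 2 and 0.164% at 1. The Cyp26b1 window held 3 GC boxes and a TATAAA (12.4% of all windows held TATAAA), and the Rarg window held 3 GC boxes, of which 2 overlap, and 1 hexamer that was not repeated. GC boxes were found in 32.7% of all windows and a hexamer in 38.6%. These are matches of letters in a short window, and no binding was measured here.

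Of the enzymes that make retinoic acid, Aldh1a3 was called and Aldh1a1 and Aldh1a2 were not. Aldh1a3, in skin best known from epidermis and hair follicle, stood at 5.54, 5.61, 5.29 and 5.44 in young replicates 1 to 4 and at 6.12, 6.04, 5.95 and 6.13 in old replicates 1 to 4. The lowest old animal was above the highest young animal. The mean rose from 5.47 ± 0.14 to 6.06 ± 0.08 (SD, n = 4 each), a difference of 0.59 ± 0.08 (SE; 1.51-fold, adjusted p = 0.00103, limma).

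The other Aldh1a3 probe sets lay in the same direction. Probe set 1448789 read 4.78, 4.99, 4.78 and 4.49 in young and 5.57, 6.07, 5.76 and 6.03 in old, a difference of 1.10 ± 0.13 (SE) without overlap, larger than that of the brightest probe set. Probe set 1427395 read 4.51, 4.74, 4.46 and 4.56 in young and 4.72, 5.11, 4.65 and 5.14 in old, a difference of 0.34 ± 0.12 (SE) with overlapping groups and an adjusted p of 0.0885 over all annotated probe sets (limma). These are low readings. As a gauge of background, probe sets of 44 olfactory receptor genes, a family of the nose, had a median level of 4.00 and a 95th percentile of 4.73.

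Aldh1a1, the most widely expressed enzyme of the family, stood at 10.24, 9.96, 10.40 and 10.10 in young and at 10.60, 9.87, 10.25 and 10.34 in old. The lowest and the highest value were both from old animals, and the difference of 0.09 ± 0.15 (SE, 95% confidence interval -0.24 to 0.42, adjusted p = 0.746, limma) did not pass. Aldh1a2, the main enzyme of the early embryo, stood between 4.46 and 4.61 in young and between 4.19 and 4.52 in old, below the 95th percentile of the olfactory receptor probe sets, with a difference of -0.16 ± 0.08 (SE, adjusted p = 0.232, limma). A level this close to background says little about the transcript.

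Whether the enzymes changed unequally was tested on the log2 ratio of 2 genes within each array, with an exact 2-sided permutation test over the 8 arrays. With 4 against 4 arrays the smallest p it allows is 0.0286, and p-values were adjusted over the 5 pairs compared. After that adjustment a ratio can fall below 0.05 only if at least 3 of the 5 reach the smallest p, so complete separation in 1 or 2 pairs cannot pass. The ratio to Aldh1a2 is not read, because Aldh1a2 was not above the background gauge. Aldh1a3 relative to Aldh1a1 was higher by 0.50, with young replicate 2 above old replicate 1 (exact p = 0.0571, adjusted p = 0.0952), and relative to the reductase Dhrs3 by 0.32 (exact p = 0.171, adjusted p = 0.171). Whether Aldh1a3 changed more than the other enzymes cannot be settled with these arrays.

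Dhrs3, which turns retinaldehyde back to retinol and is itself a retinoic acid target, stood at 7.08, 6.89, 7.24 and 7.41 in young and at 7.35, 7.45, 7.31 and 7.59 in old. Young replicate 4 lay above old replicates 1 and 3. The difference of 0.27 ± 0.11 (SE, 95% confidence interval 0.02 to 0.52) had an unadjusted p of 0.0363 and an adjusted p of 0.134 (limma) and did not pass.

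Cyp26b1, which hydroxylates retinoic acid for clearance and is also induced by it in many cells, rose. It stood at 11.20, 11.59, 11.25 and 11.64 in young and at 11.80, 11.88, 11.87 and 11.91 in old. Old animals lay within 0.11 of each other, whereas young replicates 1 and 3 were lower than young replicates 2 and 4. The mean went from 11.42 ± 0.23 to 11.87 ± 0.05 (SD, n = 4 each), a difference of 0.45 ± 0.10 (SE; 1.36-fold, adjusted p = 0.0155, limma). The highest value of any probe set was 12.91 to 13.04 over the arrays, so Cyp26b1 was among the bright genes at both ages.

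The binding proteins varied widely between animals of one age. Crabp2, which hands retinoic acid to the nuclear receptors, stood at 7.31, 7.70, 7.94 and 8.00 in young and at 7.73, 8.52, 8.16 and 8.77 in old. Old replicate 1 lay among the young values and the other 3 old animals above all of them. The difference of 0.56 ± 0.22 (SE, 1.47-fold, adjusted p = 0.118, limma) was close in size to that of Aldh1a3 but did not pass. Without old replicate 1 it was 0.75 and passed (adjusted p = 0.0247, limma), whereas without old replicate 4 it was 0.40 (adjusted p = 0.256) and without young replicate 1 it was 0.41 (adjusted p = 0.259). With the other arrays left out in turn it did not pass either. With young and old animals of the same specimen number taken as blocks, in place of the shared day, it passed (adjusted p = 0.00916, limma). No label ties these numbers to collection days, so whether the blocks match the true pairs is not known.

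Crabp1, a marker of the papillary dermis and of hair follicle mesenchyme that is thought to steer retinoic acid to breakdown, stood at 8.83, 9.66, 9.52 and 9.68 in young and at 9.35, 8.85, 9.0 and 9.65 in old. Young replicate 1 and old replicate 2 were low, and the ranges of both ages nearly coincided. The difference was -0.21 ± 0.22 (SE, 95% confidence interval -0.69 to 0.27, adjusted p = 0.577, limma). It was -0.41 without young replicate 1 (adjusted p = 0.16) and -0.09 without old replicate 2 (adjusted p = 0.851). Crabp2 relative to Crabp1 within arrays was higher by 0.77 in old (exact permutation p = 0.0857, adjusted p = 0.107 over the 5 pairs). In both binding proteins young replicate 1 was the lowest young animal and old replicate 4 the highest old animal.

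Rarg, the main retinoic acid receptor of skin, fell. It stood at 9.73, 9.49, 9.53 and 9.58 in young and at 9.25, 9.20, 9.20 and 9.27 in old. The 4 old animals lay within 0.07 of each other and below every young animal. The mean went from 9.58 ± 0.10 to 9.23 ± 0.04 (SD, n = 4 each), a difference of -0.35 ± 0.07 (SE; 1.28-fold lower, adjusted p = 0.00566, limma). Its second probe set read 8.63, 8.48, 8.32 and 8.37 in young and 7.98, 8.13, 8.08 and 8.19 in old, also without overlap, with a difference of -0.35 ± 0.08 (SE).

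The other receptors did not pass. Rara, the most broadly expressed receptor of the family, stood at 7.49, 7.27, 7.13 and 7.35 in young and at 7.34, 7.74, 7.56 and 7.59 in old. Old replicate 1 lay among the young animals, and the difference was 0.25 ± 0.10 (SE, adjusted p = 0.129, limma). It was 0.32 without old replicate 1 (adjusted p = 0.0451) and 0.31 with array weights (adjusted p = 0.0357), and with any other array left out it did not pass. Rarg relative to Rara within arrays was lower by 0.60 in old, with every old animal below every young one and the smallest exact permutation p possible, 0.0286 (adjusted p = 0.0714 over the 5 pairs).

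Among the dimer partners Rxrb stood between 7.93 and 8.21 in young and between 7.79 and 7.91 in old. The groups did not overlap, but the difference of -0.25 ± 0.08 (SE, adjusted p = 0.0646, limma) did not pass. It passed without young replicate 1 (-0.29, adjusted p = 0.0402), after a further quantile normalization (-0.31, adjusted p = 0.0206) and with array weights (-0.31, adjusted p = 0.0167). Rxra differed by 0.13 ± 0.06 (SE, adjusted p = 0.221, limma), while its dimmer probe sets lay in the other direction (-0.10 and -0.20). Rxrg, low at 5.0 in young and 4.83 in old, differed by -0.17 ± 0.09 (SE, adjusted p = 0.258, limma).

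**Figure D2:**
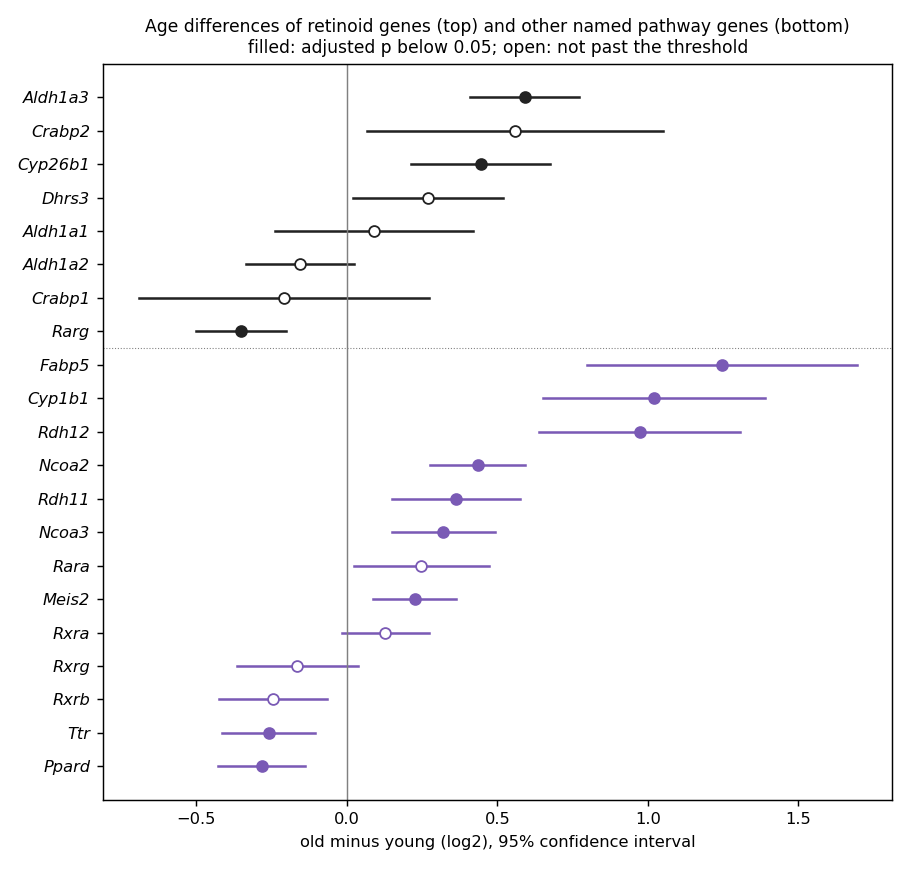
Difference old minus young on the log2 scale (horizontal axis) with its 95% confidence interval from limma, for the 8 retinoid genes above the dotted line and the 13 other named pathway genes below it. Filled points passed the threshold. The largest difference above the line is that of Aldh1a3 (0.59), and Fabp5 (1.25), Cyp1b1 (1.02) and Rdh12 (0.97) lie beyond it below the line.

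A list of 57 other genes of the pathway, from retinol carriage to receptor coregulators and responsive genes, had 49 measured. Of these 7 rose, 2 fell and 40 did not pass, beside 9.87% and 7.66% of all genes called higher and lower. The median difference was 0.03. By role, the called genes were 2 of 5 retinaldehyde reductases, 1 of 2 other retinaldehyde oxidases, 2 of 5 coregulators, 2 of 7 genes of carriage and uptake, 1 of 5 receptors and partners and 1 of 10 responsive genes. No gene was called among 9 retinol oxidising enzymes, 3 of ester formation and hydrolysis, 2 of carotenoid cleavage and 1 further retinoic acid hydroxylase, although 2 of the first and 1 of the second group had an unadjusted p below 0.05 in limma. The other 8 genes of the list were not analysed here. Without young replicate 2 the list had 4 higher calls, and without young replicate 2 or old replicate 1, 2 or 4 it had 1 lower call.

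The reductases Rdh12 and Rdh11, which work on retinaldehyde beside Dhrs3, were called higher. Rdh12 stood at 4.74, 4.70, 4.71 and 4.30 in young, near the 95th percentile of the olfactory receptor probe sets, and at 5.17, 5.66, 5.65 and 5.86 in old, a difference of 0.97 ± 0.15 (SE, adjusted p = 0.00186, limma). Its other probe set differed by 0.07 ± 0.09 (SE), so the probe sets disagreed. That other probe set was the brighter one in young animals (mean 4.98 against 4.61). The probe set used was thus brightest on average only through its level in old animals, and its call rests on that choice. Rdh11 stood between 8.93 and 9.05 in young and between 9.07 and 9.54 in old, a difference of 0.36 ± 0.09 (SE, adjusted p = 0.026, limma), and its other probe set differed by 0.34. The call of Rdh11 was lost without young replicate 1, 2 or 4 or old replicate 2 or 4 (adjusted p up to 0.0666) and with array weights (0.0669).

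Cyp1b1, a cytochrome P450 that can oxidise retinol and retinaldehyde beside its better known steroid and xenobiotic substrates, stood at 10.11 or below in every young animal and at 10.57 or above in every old animal. The groups did not overlap, and the difference was 1.02 ± 0.17 (SE; adjusted p = 0.00249, limma), and its dimmer probe sets differed by 1.36 and 0.46. Rdh10, which starts the pathway by oxidising retinol and is named here after its value was seen, differed by 0.26 ± 0.12 (SE, adjusted p = 0.177, limma).

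Fabp5, a fatty acid carrier that can also bring retinoic acid to the receptor Ppard, stood at 8.21, 8.54, 9.03 and 8.55 in young and at 10.11, 10.13, 9.36 and 9.71 in old, a difference of 1.25 ± 0.20 (SE, adjusted p = 0.00246, limma). Ppard itself stood between 7.42 and 7.56 in young and between 7.15 and 7.34 in old, so that carrier and receptor were called in opposite directions. Its difference was -0.28 ± 0.06 (SE, adjusted p = 0.0146, limma), and the other probe set differed by -0.29. Ttr, the plasma partner of the retinol carrier Rbp4, fell by 0.26 on the log2 scale (adjusted p = 0.0285, limma), but its other probe set differed by 0.05 and the call was lost without young replicate 1 or 2 or old replicate 1, 2 or 4 (adjusted p up to 0.0767), with array weights (0.0516) and when its probe sets were averaged (-0.11, adjusted p = 0.22).

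The coactivators Ncoa2 and Ncoa3, which nuclear receptors recruit to activate transcription, rose. Ncoa2 stood between 8.56 and 8.73 in young and between 8.98 and 9.22 in old, a difference of 0.43 ± 0.07 (SE, adjusted p = 0.00255, limma), and its other probe sets differed by 0.64, 0.27 and 0.06. Ncoa3 stood between 9.66 and 9.92 in young and between 9.98 and 10.18 in old, a difference of 0.32 ± 0.08 (SE, adjusted p = 0.0181, limma) that was no longer called without young replicate 2 (0.0536) or 3 (0.0546). The dimmer probe set of Ncoa3 differed by 0.425, without overlap. Both coactivators serve many nuclear receptors.

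Of 10 genes known to respond to retinoic acid, the homeobox gene Meis2 was called, with a difference of 0.23 ± 0.06 (SE, adjusted p = 0.0319, limma). Its other probe set differed by -0.11, and the call was lost without any of young replicates 2, 3 and 4 and old replicates 1, 2 and 3 (adjusted p up to 0.0925), after median centring (0.0931), after a further quantile normalization (0.0986), with trend and robust settings (0.0587) and when its probe sets were averaged (0.06, adjusted p = 0.713). Tgm2, a transglutaminase named here for its spread after its values were seen, stood at 7.81, 10.57, 9.04 and 9.39 in young and at 8.55, 9.08, 8.47 and 7.92 in old. Young replicates 1 and 2 were further apart than the ages, and the difference was -0.70 ± 0.48 (SE, adjusted p = 0.38, limma). Over the 10 genes the median difference was -0.03.

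**Figure D3:**
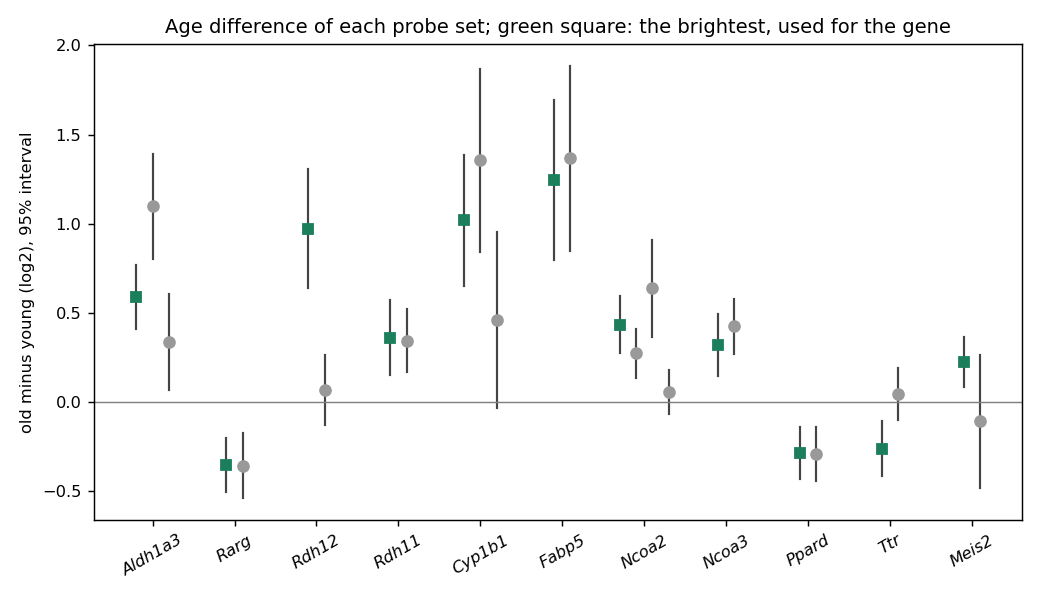
Difference old minus young on the log2 scale (vertical axis) with its 95% confidence interval for every probe set of Aldh1a3, Rarg and the 9 called pathway genes, the brightest probe set of each gene as a green square and the others as grey circles. The probe sets of Rarg (-0.35 and -0.35) and Ppard (-0.28 and -0.29) lie together, while those of Rdh12 (0.97 and 0.07) lie apart and those of Ttr (-0.26 and 0.05) and Meis2 (0.23 and -0.11) have opposite signs.

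The profile of Aldh1a3, the retinoid gene of smallest p, was set against those of the other 17096 genes by the root mean square distance between log2 values centred per gene over the 8 arrays. The 4 nearest genes were the nuclear envelope gene Tmem209 (distance 0.05, age difference 0.52), the ubiquitin ligase Wwp1 (0.07, 0.60), the adenylyl cyclase Adcy4 (0.07, 0.50) and the growth factor Tgfb2 (0.07, 0.57). The median distance over all genes was 0.33. Since they were picked for their likeness to a gene with an age difference, their own age differences follow from that choice and are given as a description.

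Markers were checked on the same arrays. The 7 fibroblast markers were bright, led by the proteoglycan Dcn (12.79 in young, 12.70 in old). Their list mean lay between 11.26 and 11.40 in young and between 11.06 and 11.20 in old, without overlap. The difference was below 0 for 6 of the 7. Of the 7, 3 were lower in every old animal than in any young one, beside 9.66% of all genes. Only Col3a1 was called (-0.28, adjusted p = 0.00765, limma), beside 7.66% of all genes called lower. Of the 5 markers that the sort excluded none was called, but 3 had an unadjusted p below 0.05 in limma, beside 2078 of all 17097 genes. Epcam and Ptprc (CD45) were higher in every old animal than in any young one, as were 11.7% of all genes. Epcam stood between 4.19 and 4.32 in young and between 4.43 and 4.99 in old. Ptprc and Kit (CD117) stood below 4 in all arrays. The brightest, Cd24a, was at 7.27 in young and 6.60 in old (difference -0.67, adjusted p = 0.0515, limma). Keratinocyte markers, of which Krt5 was brightest (9.72 and 10.76), had a list mean of 7.56, 7.13, 8.35 and 7.35 in young and 7.86, 8.16, 8.53 and 9.09 in old. Of the 10 measured keratinocyte markers 3 rose (Krt5, Krt14 and Perp) and 1, the epidermal regulator Trp63, fell, beside 9.87% and 7.66% of all genes. The difference was above 0 for 9 of the 10, among them Krt14 by 1.65 without overlap, and below 0 only for Trp63 (-0.405).

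The keratinocyte list lay higher in old by 0.81 on average, the direction of the differences of Aldh1a3, Rdh12, Fabp5 and Crabp2, which epidermal cells are also known to express. The called genes Rarg (-0.35), Ppard (-0.28) and Ttr (-0.26) lay in the other direction. Old replicate 4 was highest of all arrays in keratinocyte markers, in Crabp2 (8.77) and in Rdh12 (5.86). Old replicate 1 was the lowest old animal in keratinocyte markers (7.86), in Crabp2 (7.73) and in Rdh12 (5.17). It was near the top in Aldh1a3 (6.12) and Fabp5 (10.11). Young replicate 3, with keratinocyte markers at the level of old animals, had the lowest Aldh1a3 of all arrays (5.29) and the highest Fabp5 of the young animals (9.03). The part of other cell types in these differences was not tested. In sorted cells read as a bulk sample, fewer cells of a type and less RNA per cell cannot be told apart.

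The adipocyte, mural and endothelial list means were higher in every old animal than in any young one, and their mean differences were 1.02, 0.54 and 0.43. Of all single genes 11.7% were higher in every old animal, and the calls below stand beside 9.87% of all genes called higher and 7.66% lower. Within the adipocyte list Fabp4 differed by 3.015, but Lep by 0.06 and Adipoq by -0.03. Within the endothelial list Tek differed by 1.73, but Cdh5, Kdr, Emcn and Vwf by 0.17 or less, and none of these was called. Neither mean is therefore a rise of the whole list. The mural list was not uniform either, with 4 of 5 differences above 0 and Des at -0.18. Rgs5 stood at 6.93 in old replicate 3, the array with the highest mural mean, and between 4.86 and 4.96 in the other old animals. Mural markers (1 of 5 higher, brightest Kcnj8 at 8.43 and 9.07) had list means of 6.40 to 6.64 in young and 6.87 to 7.34 in old, and endothelial markers (1 of 5 higher, brightest Kdr at 7.40 and 7.54) 5.07 to 5.33 and 5.35 to 5.80. Of 3 measured adipocyte markers Fabp4 was brightest and rose (5.32 to 8.34), with list means of 3.79 to 4.74 and 4.96 to 5.50, while Adipoq was below 4 in all arrays. Macrophage and dendritic markers (1 higher and 1 lower of 6, brightest Csf1r at 8.57 and 6.65) had list means of 5.93 to 6.17 and 5.90 to 6.12. For sebocytes 2 of 5 markers were measured (brightest Elovl3 at 4.41 and 4.50, list means 4.26 to 4.42 and 4.24 to 4.68) and for melanocytes and Schwann cells 4 of 6 (brightest Sox10 at 5.57 and 5.51, list means 4.62 to 4.67 and 4.61 to 4.67), with none called. What these lists contributed to the retinoid genes was not tested.

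**Figure D4:**
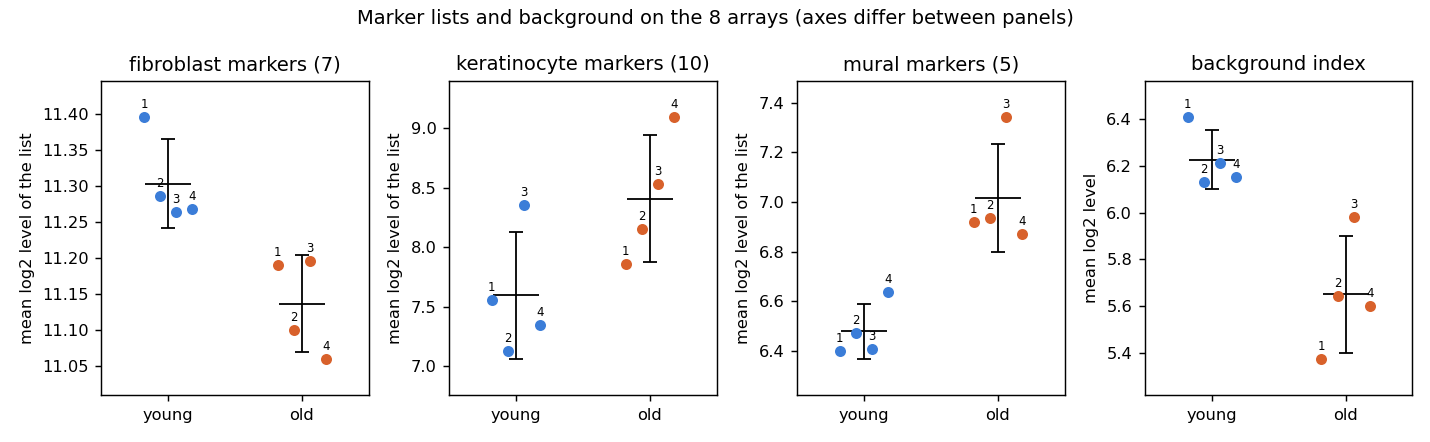
Mean log2 level of the fibroblast, keratinocyte and mural marker lists and of the background index (vertical axes, which differ between panels) on each array, young in blue and old in orange, with the replicate number at each point and a bar for the mean ± SD of 4 animals. Keratinocyte means overlap between the ages (7.13 to 8.35 against 7.86 to 9.09), whereas the background index (6.13 to 6.41 against 5.38 to 5.98) does not.

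A background index, the mean of 9 array control probe sets of high GC content that match no transcript, also moved with age. It was 6.41, 6.13, 6.21 and 6.15 in young and 5.38, 5.64, 5.98 and 5.60 in old, without overlap. With this index as a covariate none of the 8 retinoid genes was called by limma, and 2 had an unadjusted p below 0.05 (Aldh1a3, and Crabp1 with a difference of -0.89). Aldh1a3 then differed by 0.46 (adjusted p = 0.241), Rarg by -0.31 (0.388) and Cyp26b1 by 0.32 (0.613). The covariate is itself tied to age in these arrays, and over all genes it lowered the calls from 1688 higher and 1310 lower to 67 and 98. Of the 9 called pathway genes none kept its call, with Rdh12 at 1.36 (adjusted p = 0.0603), Cyp1b1 at 1.10 (0.195), Ppard at -0.43 (0.15), Ncoa2 at 0.32 (0.373), Fabp5 at 0.52 (0.552), Ncoa3 at 0.28 (0.523), Meis2 at 0.19 (0.609), Ttr at -0.06 (0.915) and Rdh11 at -0.016 (0.985).

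**Figure D5:**
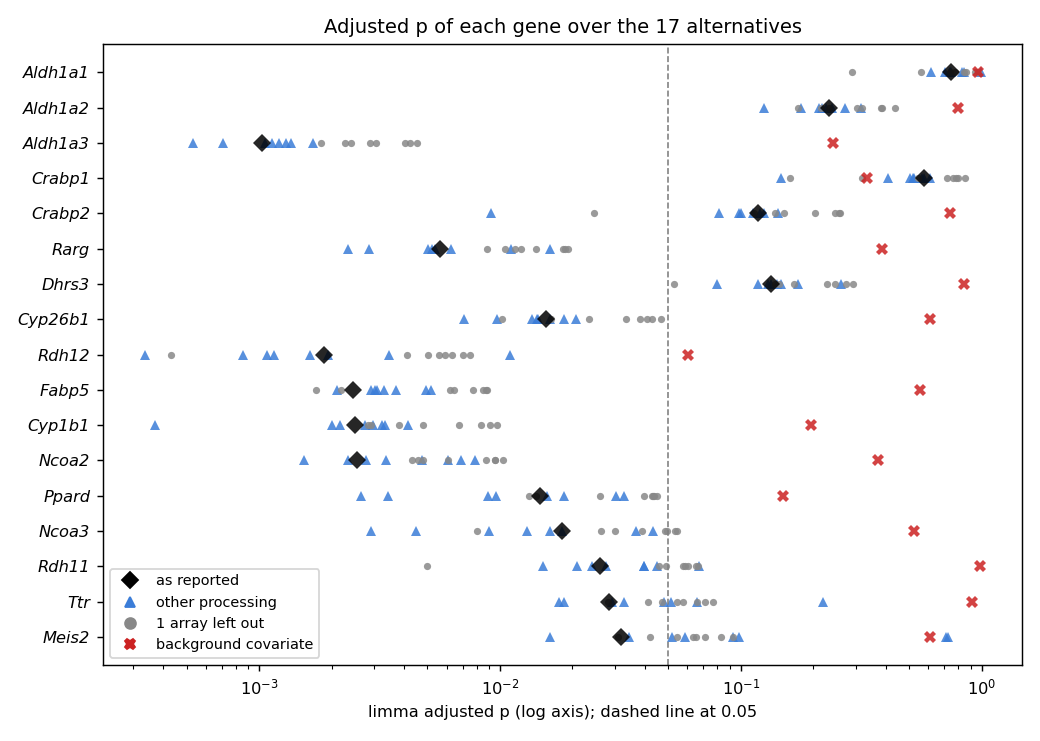
Limma adjusted p (horizontal log axis, threshold 0.05 dashed) of the 8 retinoid genes and the 9 called pathway genes as reported (black diamonds) and under 17 alternatives. Aldh1a3, Rarg and Cyp26b1 stay left of the line with every array left out in turn (at most 0.0045, 0.0191 and 0.0468) and cross it with the background covariate (red crosses).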

How the data were processed

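Transcript levels were measured on 8 arrays, 1 per mouse. The deposited values are log2 probe set levels. Per the submitters' processing notes the authors used RMA, which corrects background, quantile normalizes and summarises probes, and the R package affy. Versions and genome build are not given in the sources used here. This processing compresses differences at both ends of the scale, and precision is limited by having 4 arrays per age.

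Of 45141 probe sets, 28898 carried 1 gene symbol in the platform annotation, 551 several and 15692 none, and only the first were used. The age difference was fitted in limma (version 3.58.1, R version 4.3.3) with lmFit and eBayes, 2-sided and without covariates, and adjusted by Benjamini-Hochberg over 17097 genes, with no filter on low values. Young and old animals were not paired in this fit, and blocks of the same specimen number served only as an alternative. Permutation tests used scipy 1.17.1 and figures matplotlib 3.10.9 in Python 3.11.15. The test was tested on simulated data.

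Named genes were all members, every called pathway gene, the receptors Rara, Rxra, Rxrb and Rxrg, the 4 nearest profiles to the member of smallest p, and the brightest gene of each marker list. Rdh10, Tgm2, Col3a1, Trp63, Krt14, Perp, Ptprc, Kit, Epcam, Adipoq, Lep, Tek, Cdh5, Emcn, Vwf, Rgs5 and Des fell outside this rule and were chosen after their values were seen. The members and lists were chosen with earlier results of these data known. The searches for single hexamers, GGGCGG and TATAAA, and the olfactory receptor gauge, were added after seeing the data. Promoters came from RefSeq (GRCm38.p6). The background index is the mean of 9 control probe sets of at least 17 G or C bases per probe, and served as a covariate in an alternative beside other normalizations, probe set choices, weights and left-out arrays.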

Additional observations from a re-analysis of the deposited data

Results flagged for a closer look

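Of 42 groups of 4 animals examined, 2 held an animal far from the other 3 by Dixon's criterion, about what chance gives at 1 in 20. Rdh12 was lowest in young replicate 4, at 4.30, with the next young animal at 4.70. Ppard was lowest among young animals in replicate 1, at 7.42, with the next at 7.54. Both genes kept their calls without these arrays.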

How the results depend on the processing

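Over 17 alternatives (9 of processing, 8 leaving out an array), the 3 called retinoid genes kept direction and call in all but the background covariate, which gave 0 higher and 0 lower calls in limma (1 and 1 at an unadjusted p below 0.05). The pathway list then also had 0 and 0 (6 and 2 unadjusted), and Rdh11 turned to -0.016. With each array left out in turn, 2 to 3 retinoid genes were higher and 1 lower, and 4 to 7 and 1 to 2 of the pathway list. The pathway list had 1 lower call with the mean over all probe sets and 1 with the replicate block. Meis2 turned to -0.11 with the most variable probe set. The within-array ratios moved by more than the spread between animals with that probe set for Aldh1a3 relative to Aldh1a1 (1.01) and Dhrs3 (0.83), and with the covariate for Crabp2 relative to Crabp1 (1.42) and Rarg relative to Rara (-0.78); the cause was not tested. With the replicate block, where animals share only a specimen number that no label ties to a collection day, 3 retinoid genes were higher, Crabp2 among them (adjusted p = 0.00916), Ttr (0.0657) and Meis2 (0.0516) lost their calls, and all genes gave 1838 higher and 1268 lower calls. Deviations of same-numbered young and old animals correlated at 0.285, 0.052, -0.044 and 0.224, and not every array correlated best with its own number.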
